A study of Neurospora crassa with 12 samples.

Results

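Neurospora crassa assimilates sulfur through a regulatory circuit in which CYS-3, a bZIP transcription activator, is held in check by the F-box protein SCON-2 while sulfur is plentiful and turns on permeases and enzymes for alternative sulfur sources when it is scarce. The genes of that circuit are usually discussed from their abundant transcripts. The 83 genes described here lie below that range and were chosen by their measured FPKM values. Each had a highest group mean of at least 1 and under 10 FPKM (reads scaled to transcript length and to library size) over 4 groups, group means in wild type that differed at least 2-fold between sulfur starvation and 24 μM sulfate in either direction, and all 3 wild-type values of one medium above all 3 of the other. One gene, NCU05340, was left out by name. Of 9758 genes in the files, 7737 reached a mean of 1 FPKM in a group, 2699 of these stayed under 10 FPKM in every group, and 83 met the rule. In 61 of the 83 the starved wild type was higher, and these are called starvation-high genes. In the remaining 22 the starved wild type was lower, and these are called starvation-low genes.

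The RNA came from mycelium of 2 strains in 2 media, with 3 cultures in each of the 4 groups. The wild type was FGSC 4200 (mat a), and the mutant was a cys-3- strain of the same mating type, a single homokaryotic isolate from the deletion collection in which a hygromycin resistance cassette takes the place of part of cys-3. Both strains grew for 24 h in Vogel's minimal medium that carried 500 mg/L methionine, were washed, and spent 4 h in medium with 24 μM sulfate or without a sulfur source. The cultures were independent, on the same or on different days, and which shared a day is not given in the sources used here.

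Facts of all 12 libraries bear on these genes in a few ways. The Cufflinks intervals imply between 7.33 and 11.2 megareads per library, and replicates correlated at 0.986 to 0.995 on the log2 scale. The cys-3 gene, intact in wild type, was read there at 58.7 to 66.6 FPKM with sulfate and at 132 to 162 FPKM once starved. In the mutant, where only part of the gene remains, it was read at 71.1 to 79.7 FPKM. This gene checks the labels only in part, since transcript from the part that was not replaced is still counted in the mutant. The 5 mycelial genes summed to between 11578 and 12785 FPKM in every library. Markers of conidiation, 8 genes, had lower summed levels in wild type (57.2 to 86.0 FPKM) than in cys-3- (94.4 to 121 FPKM), with none of the markers at 0 in a group. Only eas (6.83 to 16.7 FPKM in wild type, 19.8 to 36.9 FPKM in cys-3-) and csp-1 (27.5 to 47.7 and 48.1 to 58.7 FPKM) lay apart between the strains. The markers con-6, con-8, con-10, con-13, fl and acon-3 overlapped. The part of the conidiation markers in the differences between strains below was not tested. Sexual development genes, 5 in number and led by asd-1, summed to 46.4 to 52.5 FPKM in starved wild type and 63.6 to 84.2 FPKM in the other groups. None of the 83 genes is in these lists or in the lists of sulfur metabolism, sulfur transport and sulfur regulation. As RNA of whole mycelium, the values cannot tell fewer expressing cells from less RNA per cell.

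Because the rule read the wild-type libraries, the wild-type differences are given as a description without a test. Among the 7737 genes, 2.61% were at least 2-fold higher in starved wild type with groups that did not overlap and 0.53% were at least 2-fold lower. Among the 2699 low-abundance genes those shares were 2.26% and 0.815%, which are the 61 and 22 genes themselves. Over the starvation-high genes the median of the group means was 0.925 FPKM in wild type with sulfate, 2.71 FPKM in starved wild type, 1.23 FPKM in cys-3- with sulfate and 1.31 FPKM in starved cys-3-. Over the starvation-low genes the medians in the same order were 3.21, 1.08, 3.43 and 2.28 FPKM. In wild type these medians part because of the rule, while the pair of cys-3- groups was not used to set a direction. With any wild-type library left out, fewer values have to lie apart, so the separation is easier to meet. The number of starvation-low genes was then 26 to 38, and that of starvation-high genes 63 to 81. With a cys-3- library left out, which does not touch the separation, the numbers were 22 to 23 and 61 to 62.

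**Figure D1:**
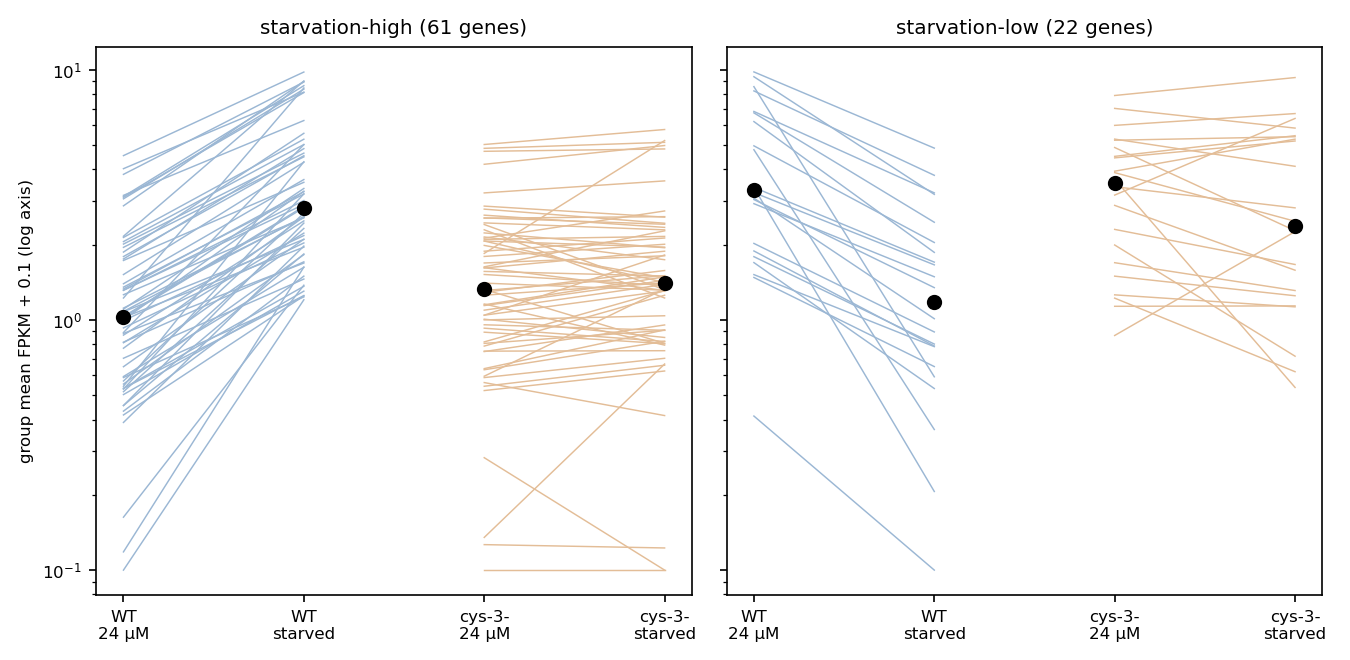
Group mean FPKM + 0.1 (log axis) of each of the 61 starvation-high genes (left) and 22 starvation-low genes (right), with one line per gene within a strain and a black point for the median over genes. The wild-type lines all slope one way by the rule, while the median of the cys-3- groups goes from 1.23 to 1.31 FPKM on the left and from 3.43 to 2.28 FPKM on the right before the added 0.1.

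Most of the differences were modest. A floor of 3 reads per library was set, below which a level cannot be told from 0. A group was counted as above the floor when its highest library was above it. For 53 starvation-high genes the group with sulfate was above that floor, and starved wild type exceeded it by a median of 2.80-fold, from 2.02 to 9.45. Of these, 34 lay between 2-fold and 3-fold, 13 between 3-fold and 5-fold, and 6 above. In the other 8 genes the libraries with sulfate all held 3 reads or fewer. With those 8 at their lower bounds the median over all 61 was 2.66. For 19 starvation-low genes the starved group was above the floor, and the median decrease was 2.42-fold, from 2.01 to 17.7, with 14 genes between 2-fold and 3-fold. With the other 3 at their bounds the median stayed at 2.41. The genes at the floor included, 15 of the 61 and 7 of the 22 had a lower-group library at 3 or fewer reads. Some ratios above the floor thus rest on few reads, as for NCU16586 with 0, 1 and 4 implied reads with sulfate.

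The most abundant starvation-high gene, NCU04194, was read at 3.97, 5.56 and 3.80 FPKM in wild type with sulfate and at 9.17, 8.73 and 11.2 FPKM in starved wild type. In cys-3- the same gene stood at 4.49, 5.23 and 5.08 FPKM with sulfate and 5.33, 5.44 and 6.25 FPKM in starvation. Its wild-type ratio was 2.18 and its cys-3- ratio 1.15, and the starved cys-3- values stayed below all 3 of starved wild type. It shares 6 bases with NCU04195, which was lower in starved wild type (27.6 FPKM) than with sulfate (45.6 FPKM).

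NCU11146, annotated as an aminotransferase, an enzyme class that moves amino groups between amino acids and keto acids, followed the same pattern. It was at 3.08, 4.68 and 3.40 FPKM in wild type with sulfate and at 8.12, 8.60 and 9.80 FPKM in starved wild type, a ratio of 2.38. The 6 cys-3- libraries ranged from 4.21 to 5.12 FPKM in both media together, so that none reached the lowest starved wild-type value.

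The catalase gene cat-4 (NCU05169, chromosome IV, 5891781 to 5894885), whose product belongs to the enzymes that break down hydrogen peroxide, was the most abundant starvation-high gene with a gene symbol. It was read at 2.39, 3.19 and 3.56 FPKM in wild type with sulfate and at 5.38, 5.85 and 7.29 FPKM in starvation, a ratio of 2.02 that is close to the threshold. In cys-3- it was at 2.14, 2.86 and 2.38 FPKM with sulfate and at 2.23, 2.30 and 2.41 FPKM in starvation. Each wild-type library in starvation rests on at least 200 reads by the interval, so this gene is among the better counted of the set.

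A second symbol belongs to neg-1 (NCU04395, chromosome IV, 3501796 to 3503512), which encodes a β-1,6-glucanase of the cell wall. It was at 0.583, 0.567 and 0.984 FPKM in wild type with sulfate and at 1.65, 2.25 and 2.48 FPKM in starved wild type, a ratio of 2.99. Unlike cat-4, it was as high in starved cys-3-, at 2.86, 2.57 and 1.08 FPKM, and stood at 1.21, 1.41 and 1.97 FPKM in cys-3- with sulfate. All 3 of those last values lie above the wild type in the same medium.

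NCU08145, NCU08178 and NCU09456, all on chromosome VII and without an annotation in the sources used here, combined a high level with a large ratio. NCU08145 was at 1.71, 2.09 and 2.38 FPKM in wild type with sulfate and at 5.0, 11.9 and 9.89 FPKM in starvation, a ratio of 4.33, while its cys-3- libraries lay between 1.56 and 2.01 FPKM. NCU09456 went from 1.62, 0.634 and 1.12 FPKM to 5.05, 11.8 and 8.21 FPKM, a ratio of 7.44, and its cys-3- libraries lay between 0.554 and 0.90 FPKM. In starvation wild type was 4.68 and 11.9 times the mutant in these 2 genes, and with sulfate the strains overlapped in both.

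NCU08178 was at 2.79, 2.57 and 2.92 FPKM in wild type with sulfate and at 5.21, 14.7 and 6.83 FPKM in starvation. Its ratio of 3.22 leans on replicate 2, the only starved wild-type library above 10 FPKM. In cys-3- it ranged from 1.43 to 1.94 FPKM over both media, below the wild type in either medium with no overlap.

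**Figure D2:**
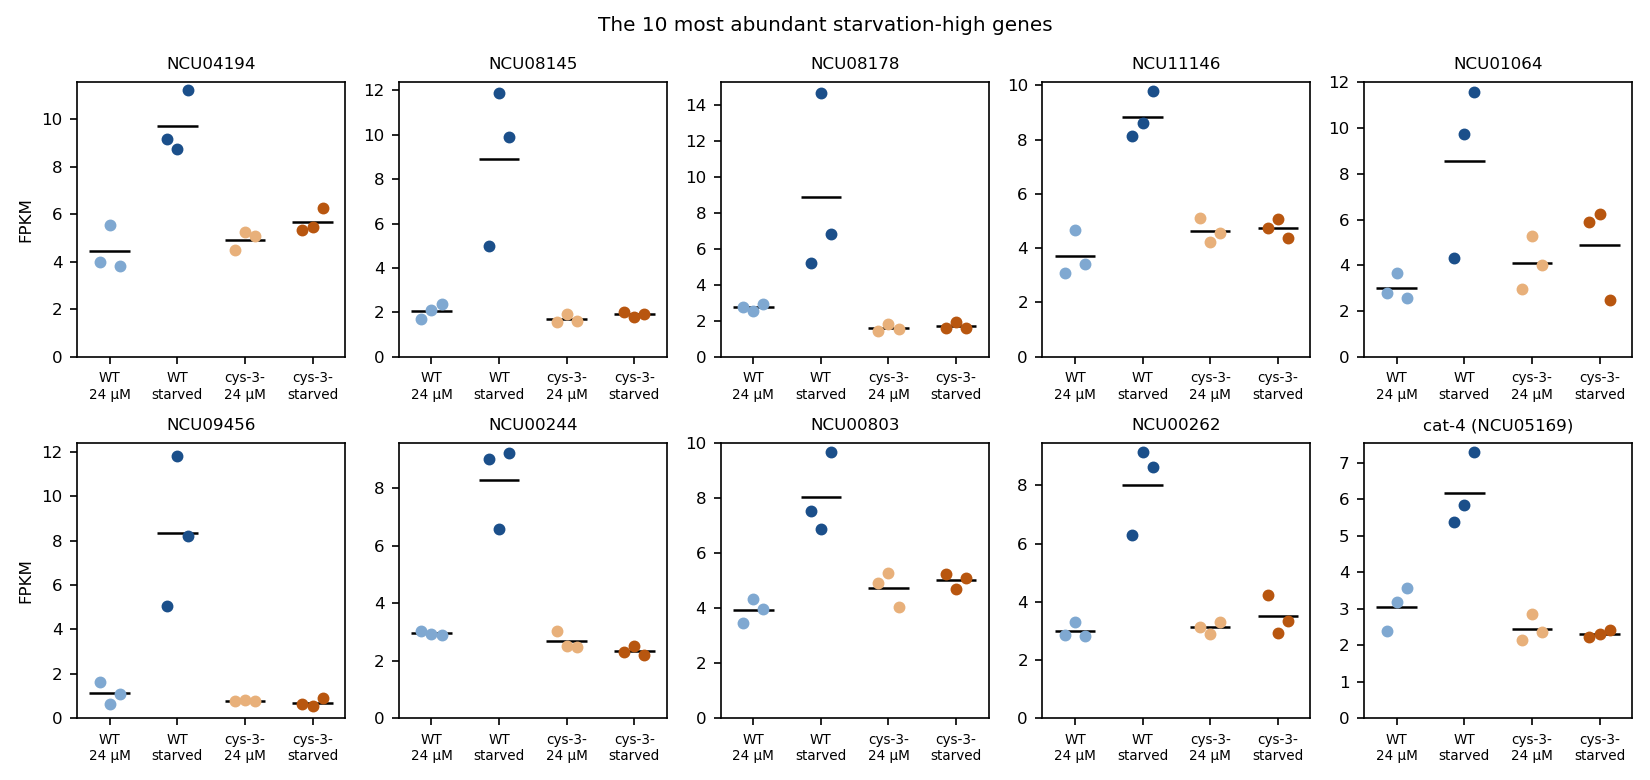
FPKM of the 10 starvation-high genes with the highest group means in the 3 libraries of each group (points) with the group mean (line), on linear axes from 0. The wild-type groups do not overlap by the rule. In 9 of the 10 genes all starved cys-3- points lie below the starved wild-type points, where 21.9% of all tested and 12.9% of low-abundance genes were. The exception is NCU01064, where starved cys-3- (2.50 to 6.25 FPKM) overlaps starved wild type (4.32 to 11.6 FPKM). The 10 genes were picked by means that starved wild type set, so nothing is read from this count.

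The remaining genes of the most abundant 10 were NCU01064, NCU00244, NCU00803 and NCU00262, with starved wild-type means of 8.55 ± 3.77, 8.28 ± 1.46, 8.05 ± 1.47 and 8.02 ± 1.52 FPKM (SD, n = 3). Their ratios to wild type with sulfate were 2.83, 2.80, 2.05 and 2.68. NCU01064 is the least certain of them, since its starved values of 4.32, 9.74 and 11.6 FPKM rest on as few as 26.5 implied reads and its wild-type intervals overlap.

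Other genes are named here because their annotation gives an enzyme or a secreted product, and they were chosen after their values were seen. NCU06618, a metallopeptidase of the MepB type, was at 1.73, 2.09 and 1.49 FPKM in wild type with sulfate and 5.14, 5.30 and 5.99 FPKM in starvation, against 1.86 to 2.24 FPKM over the 6 cys-3- libraries. NCU03617, a haloacid dehalogenase, went from 1.25 to 1.36 FPKM with sulfate to 2.17 to 4.68 FPKM in starvation, but its cys-3- values of 1.2 to 3.18 FPKM overlapped both. NCU07413, a cytosine deaminase, was at 0.884, 1.3 and 1.46 FPKM with sulfate and at 2.79, 2.89 and 2.71 FPKM in starvation. In cys-3- it was already at 2.02 to 2.67 FPKM with sulfate and at 1.93 to 2.57 FPKM in starvation. The metallopeptidase gene was thus near its sulfate level in both mutant groups, whereas the deaminase gene was closer to its starved level in both. NCU07413 rests on 20.5 implied reads in its lowest starved wild-type library.

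NCU09423, annotated as a secreted protein, had one of the largest ratios, 7.21. It was at 0.344, 0.423 and 0.521 FPKM in wild type with sulfate, at 1.42, 3.29 and 4.57 FPKM in starved wild type, and between 0.318 and 0.871 FPKM in cys-3-. NCU07898, annotated as endoglucanase IV, an enzyme class that acts on cellulose, and NCU16599, which carries a C6 zinc finger domain found in fungal transcription factors, had ratios of 3.80 and 4.21 at starved means of 1.73 ± 0.687 and 1.40 ± 0.591 FPKM. NCU07898 overlapped between the starved strains, and NCU16599 did not. NCU09742, annotated as a sporulation-specific protein, was at 0.251 to 0.578 FPKM with sulfate and 1.06 to 1.38 FPKM in starved wild type.

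The largest ratios among genes counted above the floor began with NCU06915, at 9.45, whose locus shares 97% of its length with the far more abundant NCU06914 (70.5 FPKM in starved wild type). The libraries were counted without strand, so reads from one locus of such a pair cannot be told from the other. NCU07068 had a ratio of 6.23 and shares no bases with another gene. It was at 0.890, 0.834 and 0.650 FPKM in wild type with sulfate, at 3.43, 5.92 and 5.43 FPKM in starvation, at 0.873 to 1.19 FPKM in cys-3- with sulfate and at 1.11 to 1.63 FPKM in starved cys-3-. NCU09631 went from 0.323 to 0.388 FPKM to 1.47 to 1.90 FPKM, a ratio of 4.89, and was at 0.676 to 0.950 FPKM in starved cys-3-. NCU07581 and NCU01056, at ratios of 6.48 and 5.33, rest on as few as 8 and 12.1 implied reads in a starved library.

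Of the 8 genes at the floor in wild type with sulfate, NCU07448 and NCU11305 kept a lower bound of at least 2-fold. NCU07448 had 0, 0 and 1 read with sulfate and 14.7, 34.7 and 26.9 implied reads in starvation (1.04, 1.93 and 1.61 FPKM), which makes it at least 9.29-fold higher against the level of 3 reads in a library. In the 6 cys-3- libraries it never had more than 1 read. Of the 8 it is the one gene whose Cufflinks intervals were apart between the wild-type groups. NCU11305 was at least 2.26-fold higher, with 4 to 8 reads per starved library. For the other 6, the bound lay under 2, so that a 2-fold difference is not established by the read numbers. The 5 highest genes at the floor by group mean were NCU03467, NCU06784, NCU00574, NCU03373 and NCU07448. NCU10766 was not detected in the 9 libraries other than starved wild type, where it had 5, 9.6 and 4 implied reads.

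Some of the genes lie beside a more abundant gene that was also higher in starved wild type. For each gene the nearest gene on either side was examined, and a neighbour was counted as raised when its mean FPKM + 1 at least doubled in starved wild type and its highest group mean was at least 10 FPKM. Such a neighbour stood beside 9 of the 61 starvation-high genes (14.8%) and 2 of the 22 starvation-low genes (9.09%, NCU04697 and NCU07895), against 2.86% of the 7737 genes and 3.00% of the low-abundance genes. The shares are a description without a test.

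The neighbours are genes of sulfur acquisition in several cases. NCU10766 (chromosome IV, 250914 to 251836) lies 116 bases from the taurine dioxygenase gene tdo-4 (NCU07610), which was at 0.910 FPKM in wild type with sulfate and 947 FPKM in starvation. NCU01056 and NCU01058 on chromosome V flank tdo-2 (NCU01057), another taurine dioxygenase gene, at 1.27 and 693 FPKM. NCU01056 also overlaps by 35 bases the chromate transporter gene trm-50 (NCU01055), at 2.38 and 105 FPKM. NCU11305 lies 298 bases from NCU05888, a desulfurization enzyme gene at 0.647 and 173 FPKM. With sulfate and in cys-3- the 4 neighbours stayed under 3 FPKM. What part their reads have in the values of these genes was not tested.

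Of these, NCU01058 was the best counted. It was at 1.26, 1.75 and 1.24 FPKM in wild type with sulfate and at 3.42, 4.4 and 4.71 FPKM in starvation, a ratio of 2.94. It was at 1.26 to 1.67 FPKM in cys-3- with sulfate and 0.942 to 1.72 FPKM in starved cys-3-, and tdo-2 itself was at 0.684 and 0.186 FPKM in the mutant groups. Both genes were thus highest in the same group of the 4.

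NCU08564, of unknown function, lies 500 bases from scon-2, which encodes the F-box protein of the circuit and was at 15.7 FPKM in wild type with sulfate and 49.2 FPKM in starvation. NCU08564 was at 0.668, 1.02 and 1.26 FPKM with sulfate and 2.11, 3.01 and 2.35 FPKM in starvation. In contrast to scon-2, which stayed at 12.6 and 12.7 FPKM in cys-3-, it was at 1.11, 0.981 and 0.745 FPKM in cys-3- with sulfate and at 0.995, 2.33 and 1.83 FPKM in starved cys-3-, overlapping the starved wild type.

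Further neighbours were NCU10030, annotated as alpha-L-rhamnosidase C, beside the methionine sulfoxide reductase gene pmsr-1 (NCU10029), NCU00262 beside the endopeptidase gene spr-10 (NCU00263), NCU08145 beside NCU08146, and NCU05078, a protein-beta-aspartate methyltransferase, 4735 bases from the peptide transporter gene mfs-9 (NCU05079). NCU10030 was at 1.59, 1.52 and 1.85 FPKM in wild type with sulfate and 4.27, 4.55 and 5.42 FPKM in starvation, and pmsr-1 was at 46.4 and 132 FPKM. In cys-3- NCU10030 lay between 1.18 and 1.36 FPKM, below the wild type in both media. NCU05078 was at 0.815, 1.04 and 0.856 FPKM with sulfate and 2.1, 2.88 and 4.54 FPKM in starvation, and mfs-9 at 140 and 756 FPKM.

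A list of genes with a CYS-3 DNA affinity peak upstream of the start codon accompanies the study, and it was used here for membership only. It holds 18 of the 61 starvation-high genes (29.5%) and 2 of the 22 starvation-low genes (9.09%), against 6.86% of the 7737 genes and 6.19% of the low-abundance genes. The 18 include NCU11146, NCU06618, NCU09423, NCU08564, NCU10766 and NCU10030, and the starvation-low pair is aod-3 and NCU04697. The peaks come from DNA bound in vitro in a single library, before the paper's filter on expression. That filter asked for at least 10 FPKM, which none of the 83 genes reaches as a group mean. The listed genes NCU00262, NCU05078, NCU08564, NCU10030, NCU10766 and NCU04697 also have a raised neighbour, so the peak and neighbour shares are not separate observations. Both are a description without a test.

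The starvation-low genes were fewer, and 7 of the 22 (31.8%) share at least 50% of their locus with another gene, against 4 of the 61 starvation-high genes (6.56%), 3.23% of the 7737 genes and 4.82% of the low-abundance genes. In unstranded libraries the levels of these 7 are uncertain. They are NCU00079, NCU00149, NCU01647, NCU02675, NCU03764, NCU07895 and NCU16771.

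Those shared loci carried the largest decreases. NCU07895 was at 5.99, 4.31 and 3.78 FPKM in wild type with sulfate and at 0.367, 0.105 and 0.322 FPKM in starvation, a 17.7-fold lower level, while 89.6% of its locus lies in the oligopeptide transporter gene opt-3 (NCU07894), which went from 11.3 to 98.3 FPKM. NCU03764 was 17.2-fold lower, at 12.9, 2.74 and 9.77 FPKM with sulfate and 5.28e-05, 0.582 and 0.897 FPKM in starvation, and shares 97.6% of its locus with NCU03765, which differed little between the media (11.2 and 12.2 FPKM). NCU00149 lies wholly within NCU00148 and had 0 to 5 implied reads in every wild-type library, so no fold is given. In starved cys-3- it was read at 8.19, 6.67 and 4.03 FPKM, on 69.4, 48.5 and 32.9 implied reads, while NCU00148 had group means of 18.6 to 23.6 FPKM. NCU00079 was at least 9.80-fold lower in starved wild type against the level of 3 reads, and shares 98.6% of its locus with NCU00078. The bound for NCU16334, which shares no bases, was 1.42, so a 2-fold difference is not established by its reads.

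Among the starvation-low genes with a locus of their own, aod-3 (NCU04874, chromosome IV, 576875 to 580204) is annotated as alternative oxidase-3, of a family of mitochondrial enzymes that pass electrons from ubiquinol to oxygen. It was at 4.11, 3.63 and 2.12 FPKM in wild type with sulfate and at 1.95, 0.894 and 1.97 FPKM in starvation, a 2.05-fold lower level. In cys-3- it was at 4.46, 2.58 and 4.46 FPKM with sulfate and at 6.34, 4.81 and 4.4 FPKM in starvation, so the starved strains were 3.23-fold apart.

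The trehalase gene tre-1 (NCU00943, chromosome I, 6632519 to 6635173), whose product splits the storage sugar trehalose into glucose, was at 2.33, 1.33 and 1.70 FPKM in wild type with sulfate and at 0.698, 0.819 and 0.544 FPKM in starvation, a 2.60-fold lower level, and shares 78 bases with NCU10847. In starved cys-3- it was at 1.21, 1.13 and 1.29 FPKM, between the wild-type groups and apart from both. The mutant with sulfate, at 1.90, 1.77 and 1.12 FPKM, overlapped the wild type in that medium.

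NCU04697, annotated as cyanide hydratase, an enzyme class that turns cyanide into formamide, was at 4.22, 2.73 and 1.96 FPKM in wild type with sulfate and at 0.748, 0.903 and 1.08 FPKM in starvation, a 3.26-fold lower level. Its neighbour NCU04698, a spermine or spermidine synthase gene, moved the other way, from 16.1 to 36.5 FPKM. In cys-3- NCU04697 overlapped between the media, at 1.67 to 2.51 FPKM with sulfate and 0.928 to 2.46 FPKM in starvation.

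The more abundant starvation-low genes carry no annotation in the sources used here. NCU01620 was at 11.6, 10.9 and 5.39 FPKM in wild type with sulfate and at 3.68, 2.66 and 2.89 FPKM in starvation, a 3.02-fold lower level, and at 5.29 to 8.89 FPKM over the cys-3- libraries. NCU06063 went from 7.68, 2.96 and 7.70 FPKM to 2.16, 1.56 and 1.57 FPKM, and NCU07485 from 6.11, 6.5 and 7.55 FPKM to 2.62, 3.12 and 3.63 FPKM. In starved cys-3- those 2 genes stood at 4.68 to 5.88 and at 5.84 to 7.75 FPKM, above all starved wild-type values. NCU09914, NCU04998, NCU04197 and NCU03157 were 2.04-fold, 2.81-fold, 2.01-fold and 2.51-fold lower in starved wild type. NCU08790 was 2.42-fold lower, and NCU01647, one of the shared loci, 2.50-fold.

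**Figure D3:**
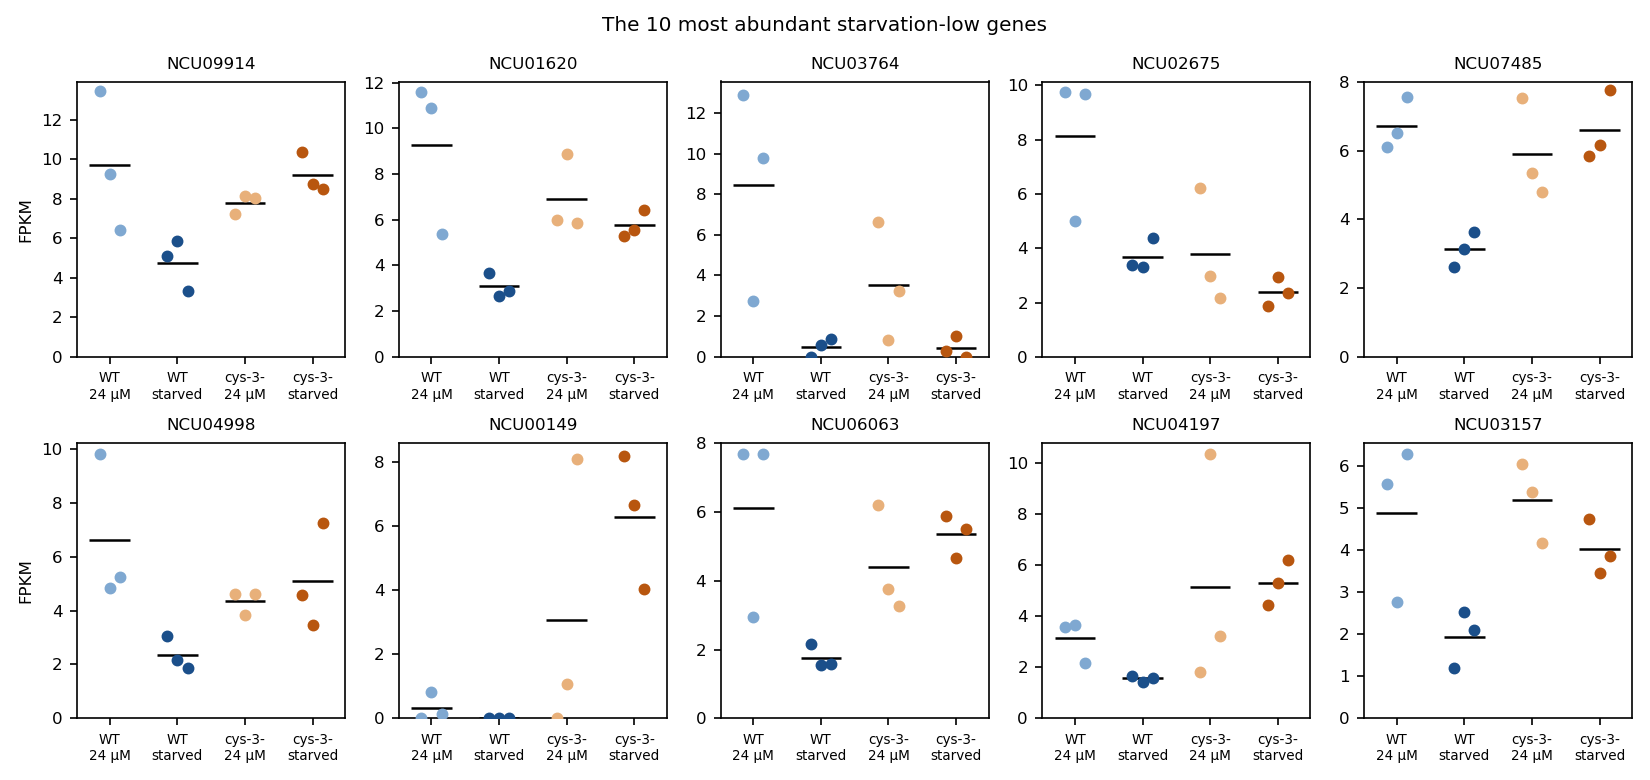
FPKM of the 10 starvation-low genes with the highest group means in the 3 libraries of each group (points) with the group mean (line), on linear axes from 0. NCU00149, NCU02675 and NCU03764 share nearly all of their locus with another gene, and the spread between replicates is wide in several groups, such as 1.82 to 10.3 FPKM for NCU04197 in cys-3- with sulfate.

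The cys-3- libraries give the one comparison whose direction the choice of genes did not fix. It is not wholly independent of the choice, since the cys-3- means entered the window of 1 to under 10 FPKM. A cys-3- group had the highest mean in 7 starvation-high and 9 starvation-low genes. The comparison asks whether genes chosen for a difference in wild type also differed between the media in the cys-3- mutant. The deletion is partial, and the paper could not exclude a further role of the truncated protein. A gene was called when limma's adjusted p was under 0.05 over the 7737 genes and the ratio of group means was at least 2-fold. No starvation-high gene and no starvation-low gene was called in either direction, and among all 7737 genes 1 was called higher (0.0129%) and 0 lower (0%). That gene, NCU03712, is a low-abundance gene, which makes 0.0371% of the 2699. In the same limma fit, 7 of the 61 starvation-high genes and 5 of the 22 starvation-low genes had an unadjusted p under 0.05 (11.5% and 22.7%), against 1152 of all 7737 genes (14.9%) and 285 of the 2699 low-abundance genes (10.6%). Those 5 were NCU00149, NCU01647, NCU03764 and NCU07895, all among the shared loci, and NCU16334, at the floor in starved cys-3-. Their levels are uncertain, so nothing is read from the share of 22.7%. Limma-voom on implied reads also called 0. The lowest adjusted p was 0.179 among the starvation-high genes and 0.115 among the starvation-low genes. Of the 83 genes, NCU01647 was called higher with array weights (limma adjusted p = 0.0372) and NCU00149 without replicate 3 of cys-3- with sulfate (limma adjusted p = 0.0280), and both share their locus with another gene. NCU00149 reached 1 FPKM only in the cys-3- groups that are compared here, so nothing is read from its call or its unadjusted p. A p that misses the threshold does not show that a gene was at the same level in both media.

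The ratios in cys-3- centred near 1 for the starvation-high genes and below 1 for the starvation-low genes. The median ratio of starved cys-3- to cys-3- with sulfate was 1.05 over the starvation-high genes that could be compared (60 of 61) and 0.827 over the 22 starvation-low genes, beside 0.990 over all tested genes. In 53 of the 61 and 18 of the 22 the values of the media overlapped. The groups were apart at any fold, starved higher, for 6 starvation-high genes, where 10.9% of all tested and 7.63% of low-abundance genes were. Starved lower they were apart for 2, where 14.5% and 11% were. Of the starvation-low genes 2 were apart in each direction.

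At least 2-fold and without overlap, 3 starvation-high genes were higher in starved cys-3-, where 0.22% of all tested and 0.593% of low-abundance genes were, and none was lower. They were NCU16586, NCU07581 and NCU06808. In NCU16586 and NCU07581 the libraries of cys-3- with sulfate held at most 2 and 1 implied reads, at the floor, and against the level of 3 reads the ratios were 1.58 and 1.79, so a 2-fold difference is not established by the reads. In NCU06808 those libraries held at most 3.3 implied reads, barely above the floor. NCU16586 was at 0.472, 0.518 and 0.498 FPKM in cys-3- with sulfate and at 1.28, 0.953 and 1.46 FPKM in starved cys-3-, close to its wild-type values of 0, 0.248 and 0.703 FPKM and 1.10, 1.21 and 1.14 FPKM. NCU07581 was at 0.105, 0 and 0 FPKM and at 0.464, 0.419 and 0.817 FPKM in the mutant. NCU06808, which shares 73.4% of its locus with NCU06809, was at 1.57, 1.27 and 2.39 FPKM and at 6.01, 3.27 and 6.08 FPKM. Their limma adjusted p values were 0.179, 0.318 and 0.251.

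For single genes the limma intervals show how far a difference could have gone unseen. On the log2(FPKM + 1) scale, which understates changes at low levels, NCU09456 differed between the cys-3- media by -0.08, with a 95% interval of -0.59 to 0.44. For cat-4 the difference was -0.06 (-0.35 to 0.24), for NCU08145 0.11 (-0.36 to 0.58) and for NCU08178 0.06 (-0.48 to 0.60). For neg-1 the interval of -0.20 to 0.77 was wider on the upper side.

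Among starvation-low genes, NCU07895 and NCU16334 were at least 2-fold lower in starved cys-3- without overlap, where 0.194% of all tested and 0.482% of low-abundance genes were. NCU16334 had 1 to 3 implied reads in each starved cys-3- library, at the floor, and its mean with sulfate was 1.58 times the level of 3 reads, so a 2-fold difference is not established for it. NCU01647 was 2.81-fold higher, where 0.22% of genes were, at 1.15, 0.479 and 0.671 FPKM with sulfate and 1.58, 2.53 and 2.36 FPKM in starvation (limma adjusted p = 0.115). Both NCU07895 and NCU01647 are among the shared loci.

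**Figure D4:**
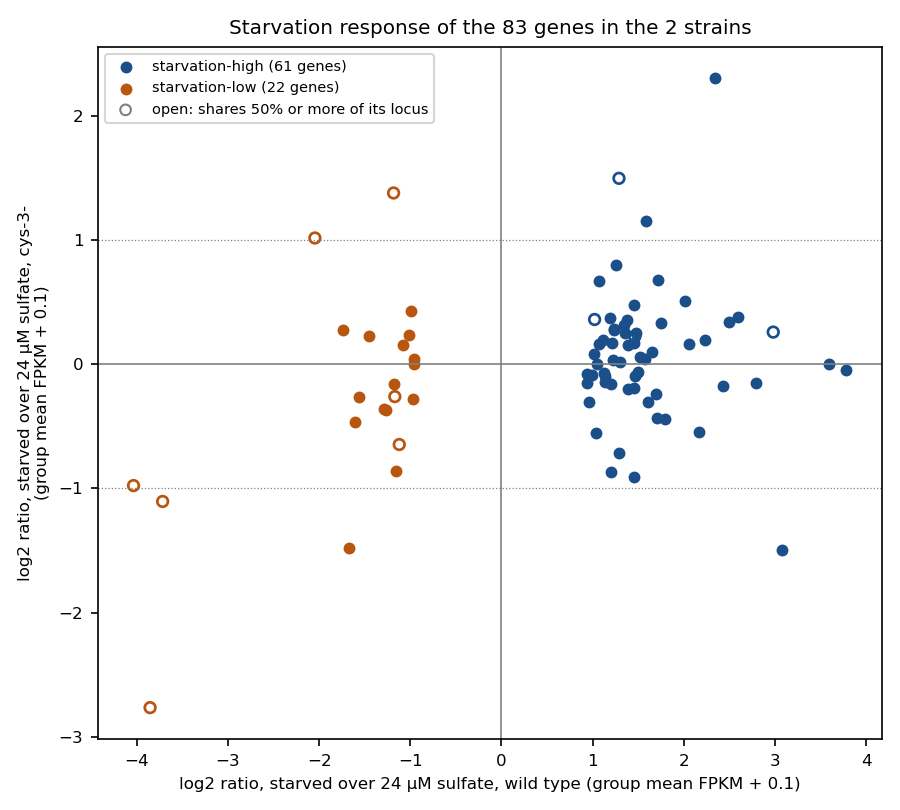
Log2 ratio of starved to 24 μM sulfate in wild type (horizontal) against the same ratio in cys-3- (vertical), from group mean FPKM + 0.1, for the 83 genes, with open circles for genes that share at least 50% of their locus. On the vertical axis the starvation-high genes run from -1.49 to 2.30 and the starvation-low genes from -2.77 to 1.38. The dotted lines lie 1 log2 unit above and below 0, and the added 0.1 FPKM shrinks ratios at low levels.

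Between the strains, the starved groups were compared as a description, since starved wild type was used to choose the genes. Of the 61 starvation-high genes, 32 were at least 2-fold lower in starved cys-3- than in starved wild type without overlap, where 2.34% of all tested genes and 1.52% of low-abundance genes were, and none was at least 2-fold higher. In 4 of the 32 starved cys-3- was at the floor, and the bound was at least 2-fold for NCU07448 and lay under 2 for NCU03373, NCU10766 and NCU11305. The median ratio of starved cys-3- to starved wild type was 0.478, and 39 of the 61 were lower without overlap at any fold, where 21.9% of all tested and 12.9% of low-abundance genes were. The starvation-low genes gave a median ratio of 2.01, with 10 of 22 at least 2-fold higher in starved cys-3- without overlap, where 1.63% of all tested genes and 2.89% of low-abundance genes were. At any fold 15 of the 22 were higher without overlap, where 26.1% of all tested and 21.6% of low-abundance genes were. These shares rest on the same starved wild-type values that the rule picked for being high or low, so nothing is read from their distance to the background.

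With sulfate the strains were closer. The median ratio of cys-3- to wild type was 1.25 for starvation-high genes and 0.774 for starvation-low genes, and 1.01 over all tested genes. At least 2-fold and without overlap, 7 starvation-high genes were higher in cys-3- with sulfate, where 0.478% of all tested and 1.22% of low-abundance genes were. These were neg-1, NCU03373, NCU03467, NCU03805, NCU05078, NCU05629 and NCU08455. In NCU03373 and NCU03467 the wild type with sulfate was at the floor. A 2-fold difference is not established by their reads, since the cys-3- mean of NCU03373 (0.827 FPKM) lies under the level of 3 reads and that of NCU03467 was 1.75 times that level. At any fold 12 were higher, where 8.22% of all tested and 9.67% of low-abundance genes were, and 2 lower (NCU08178 and NCU10030), where 6.42% and 4.52% were. Of the starvation-low genes, NCU00079 and NCU16771 were at least 2-fold lower in cys-3- with sulfate, where 0.207% of all tested and 0.222% of low-abundance genes were. Both are among the shared loci, so their levels are uncertain. At any fold 4 were lower, NCU04998 and NCU08790 included, where 6.42% of all tested and 4.52% of low-abundance genes were. None was higher, where 8.22% and 9.67% were. The rule chose wild type with sulfate to be low in the starvation-high genes and high in the starvation-low genes, so these counts too are a description.

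The replicates of starved wild type were not alike for the starvation-high genes. Replicate 1 held the lowest of the 3 values in 47 of the 61 (77.0%), where it did so in 39.7% of all tested genes. The same library was lowest for 131 of the 141 genes of at least 10 FPKM that met the same fold and separation in wild type (92.9%), for cys-3 (132 FPKM against 146 and 162 FPKM) and for opt-3 (50.3 FPKM against 110 and 135 FPKM). Without it, 74 genes met the rule upward, of which 56 are among the 61. Those numbers were the same without replicate 2, and 63 and 55 without replicate 3, so they do not set replicate 1 apart. In starved cys-3- the lowest value was spread over the replicates (20, 20 and 19 of the 59 genes read in it). The cause was not tested.

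Read numbers set the limit on single genes. The interval that Cufflinks gave around an FPKM implies 29.0 reads, as the median over starvation-high genes of the lowest starved wild-type library, and 8.4 in the lowest library with sulfate. In 37 of the 61 all 3 starved libraries held at least 20 reads, and in 16 one held fewer than 10. The intervals of all 3 starved libraries lay above those of all 3 libraries with sulfate in 20 genes, which include 9 of the 10 most abundant. For starvation-low genes the corresponding medians were 30.4 and 12.0 reads, 17 of 22 held at least 20 reads in each library with sulfate, and the intervals were apart in 4, namely NCU04998 and the shared loci NCU00079, NCU03764 and NCU07895. The intervals cover counting error as modelled by Cufflinks, not differences between cultures.

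**Figure D5:**
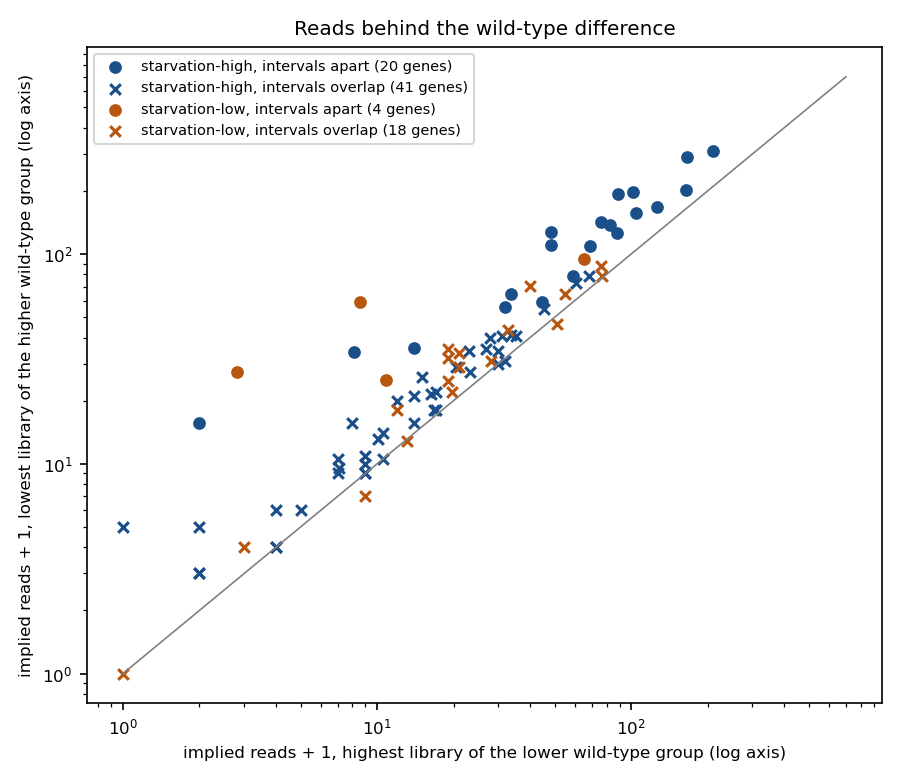
Implied reads + 1 in the highest library of the lower wild-type group (horizontal) against the lowest library of the higher wild-type group (vertical), both on log axes, with circles where the Cufflinks intervals of the groups are apart (20 starvation-high and 4 starvation-low genes) and crosses where they overlap. The diagonal marks equal reads, and 37 of the 61 starvation-high genes reach at least 20 reads on the vertical axis before the added 1.

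The thresholds cut through a continuous range. Just inside the fold limit were NCU04197 (2.01-fold lower) and NCU03467 (2.01-fold higher), and just outside were NCU04557 (1.998-fold lower) and NCU09639 (1.99-fold higher). At the lower FPKM limit NCU10766 (1.10 FPKM) and NCU05081 (1.15 FPKM) were inside, and NCU08881 (0.996 FPKM) and NCU07140 (0.966 FPKM) outside. At the upper limit NCU04194 (9.70 FPKM) and NCU09914 (9.72 FPKM) were inside, and NCU04537 (10.2 FPKM) and NCU02946 (10.6 FPKM) outside.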

How the data were processed

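Poly(A) RNA of 12 libraries was sequenced as single-end reads. The authors aligned reads with HISAT2 (version 2.1.0 in the processing notes) to the OR74A version 12 transcripts and computed the deposited FPKM values and their intervals per library with Cufflinks 2.2.1, counting without strand and scaling to the hits compatible with transcripts. No counts were used. Libraries were not scaled to each other beyond FPKM.

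The reads behind an FPKM value were taken as the square of 2 × FPKM over the distance from the FPKM to its upper bound. Where this gave 20 reads or fewer, 77.3% of 16475 values were whole to within 0.05, as were 66.4% of the 438 values of the 83 genes. A level of 3 reads served as the floor, and intervals and floors cover counting error only. Genes sharing a locus give unreliable reads.

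The members and lists were chosen with earlier results of these data known. Log2(FPKM + 1) values of all 12 libraries were fitted with limma 3.58.1 in R 4.3.3, with 1 mean per group and a variance trend, over genes of at least 1 FPKM in a group, with Benjamini-Hochberg adjustment over those genes. Only starved cys-3- against cys-3- with 24 μM sulfate was tested, and with 3 cultures a group a single gene's exact permutation test cannot go below 0.1. The fit was tested on simulated data. Alternatives were a pseudocount of 0.1, no filter or one of 3 FPKM, upper-quartile and quantile scaling, only the cys-3- libraries, array weights, a constant prior variance, a block for the replicate number, limma-voom on implied reads, ratios of mean FPKM + 1 or of geometric means, and leaving out each library. Leaving out genes that share at least 50% of their locus was added after seeing the data. Genes were named by a rule: the 10 of highest mean and the 10 of largest ratio above the floor in each direction, the 5 highest at the floor, those in a gene list, those called in cys-3-, those with a symbol, and those at each threshold. Genes named for an annotation, a neighbour or a position were added after their values were seen. Of the 9758 genes 9757 matched the RefSeq annotation (NC12) by locus tag. Other names and annotations are the study's. Python 3.11.15, pandas 2.3.3, numpy 2.4.6 and matplotlib 3.10.9 were used.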

Additional observations from a re-analysis of the deposited data

Results flagged for a closer look

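In 4 genes every starved replicate lay on one side of every replicate with sulfate in wild type and on the other side in cys-3-. The difference between the strains was not tested in any of them. They are 2 of the 61 starvation-high genes, lower in starved cys-3-, where 14.5% of all tested and 11% of low-abundance genes were, and 2 of the 22 starvation-low genes, higher in starved cys-3-, where 10.9% and 7.63% were. For NCU01647 the ratio of starved to 24 μM sulfate was 0.400 in wild type and 2.81 in cys-3-, and 93.7% of its locus lies in NCU01648. For NCU09914 the ratios were 0.491 and 1.18. For NCU04991 the ratios were 2.12 and 0.667, from 1.55, 1.23 and 2.11 FPKM to 3.11, 3.18 and 4.06 FPKM in wild type and from 2.18, 1.65 and 2.08 FPKM to 1.05, 1.29 and 1.59 FPKM in cys-3-. For NCU08455 they were 2.43 and 0.529, on as few as 9.9 implied reads in a starved wild-type library.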

How the results depend on the processing

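The number of starvation-high genes was 61. With ratios of mean FPKM + 1 it was 27, and the number of starvation-low genes went from 22 to 7, as a pseudocount shrinks low ratios by construction. Leaving out each library in turn gave 61 to 81 and 22 to 38 genes. Over those 12 fits for starvation-low genes, 15 to 22 of the 22 remained. Without wild type with sulfate replicate 1, 36 genes were starvation-low and 15 of the 22 were kept. Without replicate 3 of that group 38 met the rule, and without starved wild type replicate 1, 36 did. Fewer wild-type values then have to lie apart, so higher counts are in part built in. How much of the rise this makes was not tested. Without the genes that share at least 50% of their locus there were 57 and 15. In cys-3-, no starvation-high gene was called under any alternative run, and no starvation-low gene was called lower. A starvation-low gene was called higher in 2 fits only, NCU01647 with array weights (1 gene, adjusted p = 0.0372) and NCU00149 without cys-3- with sulfate replicate 3 (adjusted p = 0.0280), which passed the filter only through the cys-3- groups. Their adjusted p ran from 0.0372 to 0.278 and from 0.0280 to 0.732 over the fits. Leaving out libraries gave 0 to 1 such genes. Over all genes, the 1 gene called higher became 0 with a pseudocount of 0.1, with a filter of 3 FPKM and with limma-voom, 2 with upper-quartile scaling, quantile normalization or only the cys-3- libraries, 8 with array weights (2 lower), and 0 to 7 when a library was left out. With the replicate block 1 gene was called higher, 0 lower, and 0 of the 83. Correlations of same-numbered deviations ran from -0.43 to 0.31. Libraries of different numbers were not compared, so these values cannot decide whether the replicate numbers pair the samples. Depth limits genes under about 20 reads per library.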
